A study of Rattus norvegicus with 14 samples.

Results

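Translation initiation and elongation factors are the proteins that bring an mRNA and the first tRNA to the ribosome and then move the ribosome along the message. Their mRNAs were followed here in hippocampal area CA3 of rats after a spatial learning session. Of 41 listed genes, 36 had at least 1 probe set whose platform annotation named the gene alone, with 44 such probe sets in all, among 10411 genes represented in that way on the array. A probe set is a group of short oligonucleotides that together report the level of one stretch of a transcript. Each gene was represented by its brightest probe set, by mean over the 14 arrays, and 35 genes were bright enough to be tested, of 6836 genes tested in all. The exception was Eif4ebp1, an inhibitor of the cap-binding protein, whose mean log2 level of 2.17 lay below the dim cutoff of 3.88. Eif3e and Eif5 shared their probe sets with another annotated gene, and Eif1, Eif3g and Pabpc1 were named alone by no probe set used here, so these 5 genes have no value.

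The rats were young male Long-Evans animals, 3 to 4 months old, and all had been trained in a water maze 2 to 3 weeks earlier. Both groups then swam 8 trials, separated by 8 min, in a second maze at another site, always to a visible platform. For the 7 animals of the learning group (Learning Activated in the labels) the platform kept its place among orienting cues, and for the 7 control animals it changed place between trials where such cues were lacking. After 1 h came a 90 s swim with no platform, the animals were killed at once, and CA3 was dissected and measured on 7 arrays per group, labelled as biological replicates. The comparison asks which CA3 transcripts differ after rapid learning of a place, and the effects of cues, of platform movement and of learning cannot be told apart.

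As background, initiation begins when eIF2 carries the initiator tRNA to the small ribosomal subunit, with eIF1, eIF1A, eIF3 and eIF5 bound there. The factor eIF2B recharges eIF2 with GTP, and phosphorylation of eIF2 blocks that step, a control point studied in the formation of long-term memory. The eIF4 factors bind the cap of the mRNA, unwind its leader and join it to the ribosome through eIF3, and eIF4E-binding proteins hold this step back until the mTOR kinase phosphorylates them. After the subunits join, eEF1A delivers each charged tRNA, the eEF1B complex recharges eEF1A, and eEF2 moves the ribosome on by a codon. Much of this control acts on the proteins and not on the level of their mRNAs, which is all that an array measures.

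In the tested set, 4 genes were called lower in the learning group, Eif3b, Eif3k, Eif6 and Eif4b (the last at 1 of its 2 tested probe sets), and 0 were called higher (limma, Benjamini-Hochberg adjusted p under 0.05 over all 9520 tested probe sets). The decreases were small: Eif3b, the largest, fell by 15.5% of its control level, and Eif4b, the smallest, fell by 10.1%. These 4 are 11.4% of the 35 tested members. Over all 6836 genes, by their brightest probe sets, 2.57% were called, 0.98% lower and 1.59% higher, and over all 9520 probe sets 3.35% were called, 0.798% lower and 2.55% higher. At an unadjusted p under 0.05, 10 members lay on the lower side and 3 on the higher side, against 12.3% and 6.33% of all genes. The median log2 difference, learning minus control, was -0.057 over the members and -0.027 over all genes, and 23 of 35 members (65.7%) lay below 0, close to the 63.9% of all genes. Thus the share below 0 was close to that of the array as a whole, while the share called lower was above it. The members were chosen with earlier results of these data known, so this comparison is a description and not a test. With some of the covariates given at the end, 0 members were called.

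**Figure D1:**
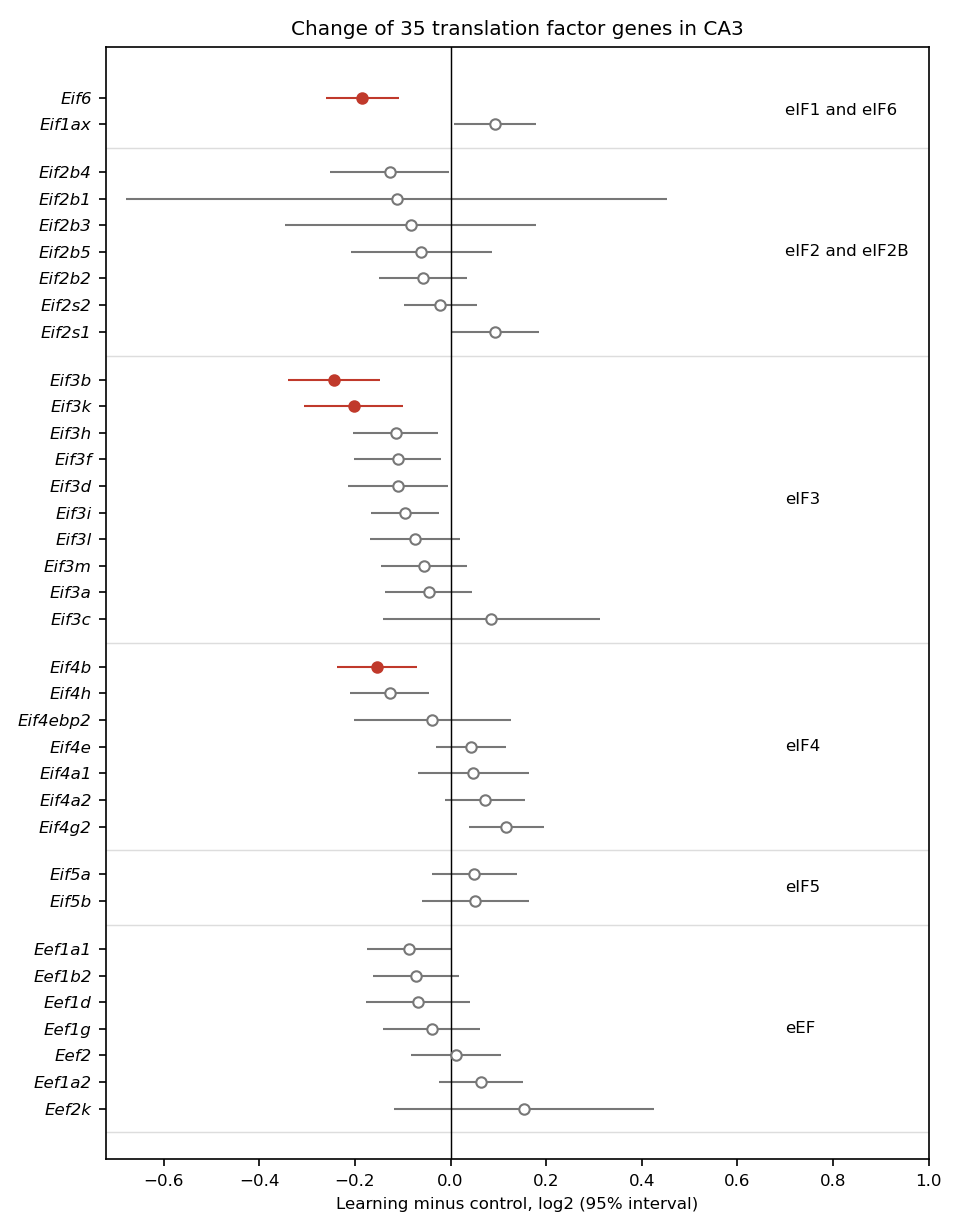
The difference between learning and control (log2 scale, horizontal axis) is plotted for the 35 tested genes by complex, with its 95% interval (7 arrays per group). Filled red points are the 4 genes past the adjusted threshold, and open grey points are the 31 that did not pass. Left of 0 lie 9 of the 10 eIF3 subunits, against 63.9% of all genes.

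The 14 arrays were alike over the tested probe sets, with correlations between 0.983 and 0.995 and 0 pairs of identical columns. The markers fixed for CA3 pyramidal cells were measurable, with mean log2 levels of 8.85 for Bok and 7.95 for Grik4, the brightest of them. Of the 4 tested, Spock1 was called higher (0.28, limma adjusted p = 0.0257) and the others did not pass. Markers of neighbouring fields were measurable too, and some were brighter than these. Signals of different probe sets do not compare as amounts, so these levels do not give the share of each field. The CA1 and CA2 list had 10.48 for Pcp4 and 8.78 for Mpped1, and the dentate list 8.27 for Calb1 and 5.25 for Prox1. Some values that describe the arrays differed between the groups. The 3'/5' signal ratio of Gapdh, which rises as RNA is degraded, did not pass after adjustment (learning 0.45 ± 0.051 SD against control 0.51 ± 0.060, log2, n = 7 each, exact permutation p = 0.0443, Benjamini-Hochberg p = 0.103 over 14 such values), nor did those of actin (exact permutation p = 0.460) and hexokinase (exact permutation p = 0.281). Spike-in controls were brighter by 0.24 (exact permutation p = 0.00117, adjusted 0.00544). The balance between dimmer and brighter probe sets of the same gene, over 349 genes without any member, was higher by 0.17 (exact permutation p = 5.83e-04, the smallest the 3432 assignments allow, adjusted 0.00544). A single array, control replicate 5, had the highest ratio of Gapdh (0.64), of actin (1.65) and of hexokinase (2.57). It also had the lowest balance (-3.66) and the lowest mean correlation (0.988). Mean levels of the 4 tested endothelial markers (difference -0.19, adjusted exact p = 0.0408) and the 3 tested choroid plexus markers (-0.93, adjusted exact p = 0.00544) were lower, the latter with Ttr at -2.09 (adjusted p = 0.0124), Igfbp2 at -0.70 (adjusted p = 0.237), Kcne2 at 0.010 and 4 further choroid plexus markers below the dim cutoff. Of the endothelial markers none passed alone (limma adjusted p from 0.0989 to 0.670). Kdr had -0.40 and Vwf -0.20, both dim, the brighter Slco1a4 -0.11 and Cldn5 -0.053, and 2 more lay below the dim cutoff. The dentate (-0.23, 3 tested of 6 on the array), microglial (-0.12), CA3 (0.086) and other lists did not pass (adjusted p from 0.103 to 0.936). In tissue RNA, fewer cells of a type and less RNA per cell cannot be told apart.

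The eIF3 complex, the large scaffold that holds the small ribosomal subunit open for the mRNA, contained 2 of the 4 genes called lower. Of its 12 listed subunits 10 were tested. Among these, 2 were called lower and 0 higher, against 0.98% and 1.59% of all genes. Below 0 lay 9 of the 10, against 63.9% of all genes. The median over the 10 was -0.10, with single values from -0.24 to 0.085, and 6 of the 10 were lower at an unadjusted p under 0.05, against 12.3% of all genes. That count was 3 with the dentate marker level as covariate, 2 without the 3 arrays of lowest mean correlation and 1 with the probe set balance as covariate. Among the other 25 members the median was -0.039, 14 lay below 0 and 4 were lower at that unadjusted p. No test of eIF3 against the other members was made.

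Eif3b, a subunit that anchors the module of eIF3 next to the mRNA entry site, had the largest decrease. Its log2 level ran from 7.20 to 7.46 in control arrays, with a median of 7.30, and from 7.01 to 7.17 in learning arrays, with a median of 7.06. All 7 learning arrays lay below all 7 control arrays, although control replicate 6 (7.20) and learning replicate 6 (7.17) nearly met. The mean was 7.33 ± 0.093 in control and 7.08 ± 0.066 in learning arrays (SD, n = 7 each), a difference of -0.24 (SE 0.045, limma adjusted p = 0.0100), and the level fell by 15.5%. Groups did not overlap, with learning lower, in 3 of the 35 tested members and in 0.453% of all genes, and with learning higher in 0 members and in 0.951% of all genes.

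Eif3k, a small subunit at the edge of the eIF3 core that is dispensable for the assembly of the rest, was the second. Its control levels ran from 9.07 to 9.31 (median 9.14) and its learning levels from 8.88 to 9.06 (median 8.98). The groups again did not overlap, but control replicates 4, 6 and 7, at 9.07 to 9.08, lay close above the highest learning array. The difference was -0.20 (9.17 ± 0.11 against 8.97 ± 0.062, SD, n = 7 each, SE 0.049, limma adjusted p = 0.0366), and the level fell by 13.1%. The call was lost on leaving out any 1 of 9 arrays, namely control replicate 1, 2, 3 or 5 or learning replicate 1, 3, 4, 6 or 7, with adjusted p from 0.0592 to 0.0721 and a difference between -0.22 and -0.18 over all 14 omissions.

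The other 8 tested eIF3 subunits did not pass, and 4 of them, Eif3d, Eif3f, Eif3h and Eif3i, lay from -0.11 to -0.095. Eif3h, Eif3f and Eif3m are members of the core that carry or bind the MPN and PCI domains of eIF3, with differences of -0.11 (adjusted p = 0.142), -0.11 (adjusted p = 0.163) and -0.055 (adjusted p = 0.495). Eif3d, a subunit that can itself bind the cap of some mRNAs, differed by -0.11 (adjusted p = 0.225), and Eif3i, the partner of Eif3b, by -0.095 (adjusted p = 0.127). In each of Eif3d, Eif3f, Eif3h and Eif3i all 7 learning arrays lay below the control mean, though the groups overlapped. Eif3l, the partner of Eif3k, had -0.074 with 6 of 7 learning arrays below the control mean, and Eif3a, the largest core subunit, had -0.045 with 5 of 7. Eif3c, the other large core subunit, was the 1 subunit above 0, at 0.085, with the widest spread of the complex (SD 0.19 in control and 0.24 in learning arrays) and an interval from -0.14 to 0.31.

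**Figure D2:**
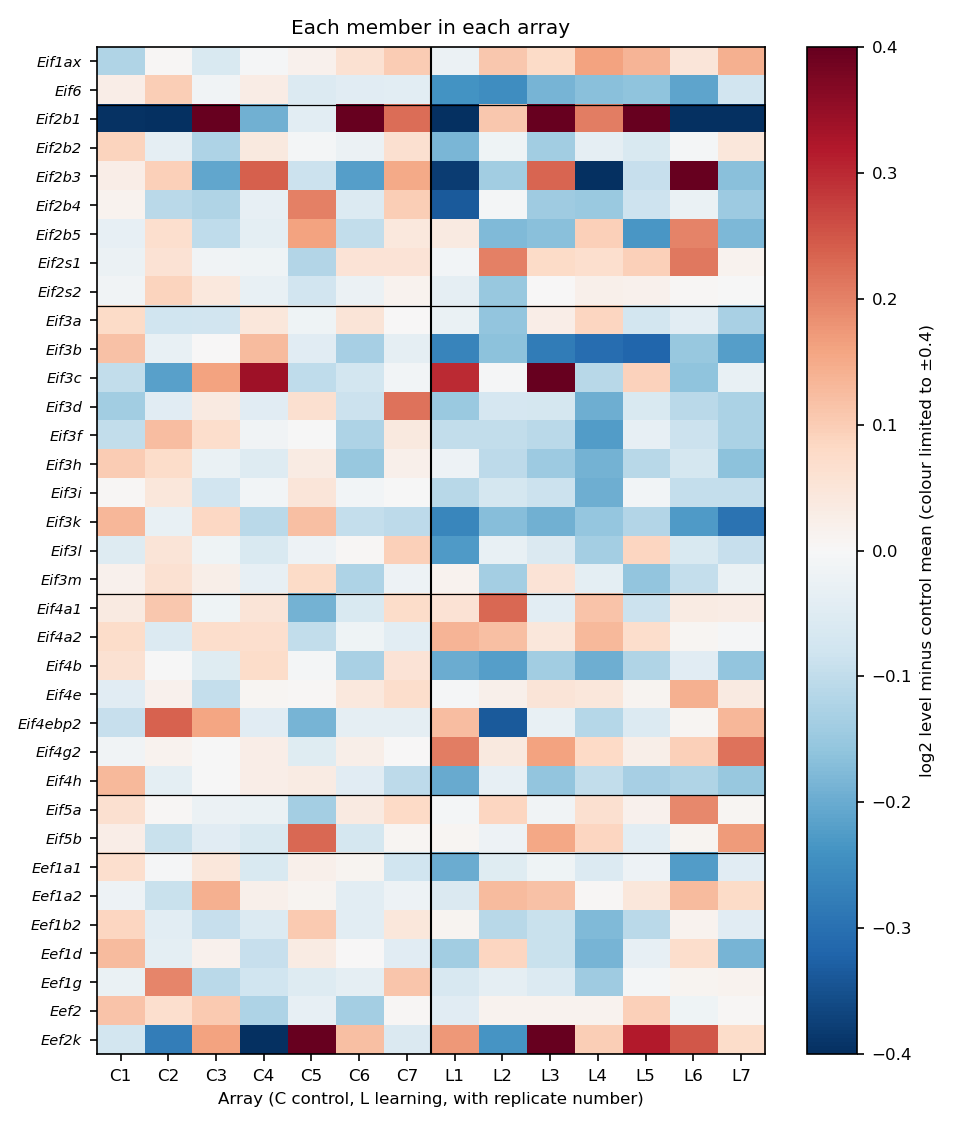
Each row is a tested gene, grouped by complex with lines between them, and each column an array (C1 to C7 control, L1 to L7 learning); colour gives the log2 level minus the control mean of that gene. In the eIF3 rows learning arrays 2, 6 and 7 are below the control mean in all 10 subunits, and Eif2b1, Eif2b3 and Eef2k vary widely in both groups.

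The eIF3 subunits were also read array by array, from the same values that gave the differences above. In learning arrays 7 to 10 of the 10 subunits lay below their control means, with 10 in learning replicates 2, 6 and 7, and in control arrays 4 to 8 did, with 8 in control replicate 6. Averaged over the 10 subunits, the deviation from the control mean ran from -0.074 to 0.020 (median 0.016) in control and from -0.15 to -0.035 (median -0.10) in learning arrays. All 7 learning arrays had a mean below 0, against 2 control arrays, and control replicate 6 (-0.074) lay within the learning range. The same mean over the 25 tested members outside eIF3 ran from -0.027 to 0.031 in control and from -0.083 to 0.021 in learning arrays, with 4 learning arrays below 0. These means are descriptions with no test. Within groups, the eIF3 mean and the array values above gave correlations over the 14 arrays of -0.08 for the Gapdh ratio, 0.30 for the spike-in level, -0.28 for the probe set balance, 0.46 for dentate, 0.40 for endothelial, -0.34 for astrocyte and -0.50 for interneuron markers. The actin ratio gave 0.15 and the hexokinase ratio 0.16. The remaining marker lists gave -0.0067 for choroid plexus, 0.020 for microglia, -0.071 for oligodendrocytes, -0.10 for CA3 and 0.27 for CA1 and CA2. Their part in the result was not tested beyond the covariate fits given at the end.

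**Figure D3:**
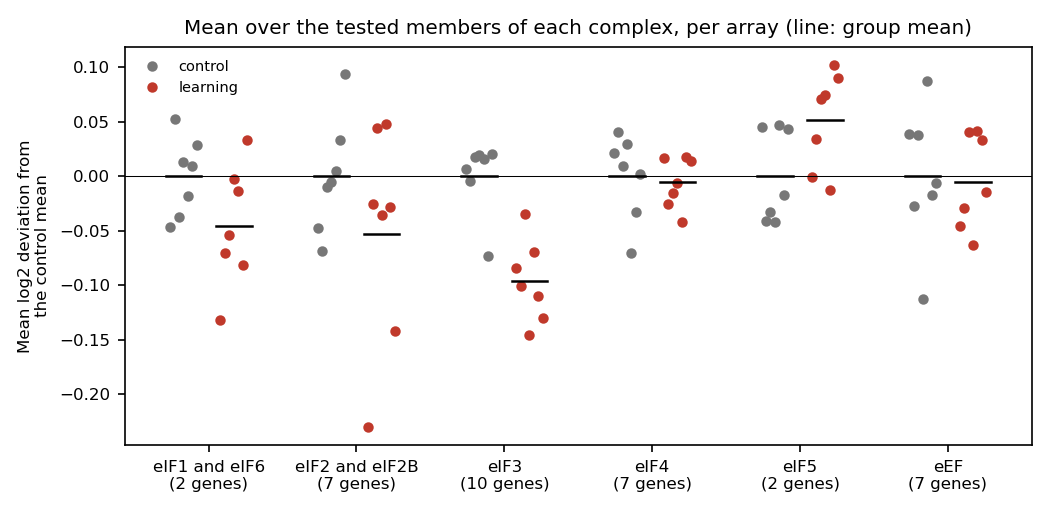
The mean over the tested genes of each complex is plotted for each of the 14 arrays as its log2 deviation from the control mean (vertical axis), with grey control and red learning points and a black line at each group mean. The 7 learning arrays of eIF3 run from -0.15 to -0.035 and overlap the controls only at control replicate 6; the other complexes overlap more widely.

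The promoters of the genes called lower are shown so that genes called in the same direction can be compared for shared letters. The RefSeq table of build GRCr8 held entries for 35 of the 41 genes and for 3 of the 4 called lower. Shown are the 250 bases before the annotated start, each on the minus strand and written 5' to 3', at chr12:19334769-19335018 for Eif3b, chr1:93397488-93397737 for Eif3k and chr3:164791411-164791660 for Eif6. Capitals mark, on either strand, CCGGAAG (a site of ETS-type factors), CACGTG (the E-box bound by Myc and USF proteins), GGGCGG (the GC box of Sp1) and TGACGT (part of the cAMP response element bound by CREB).
Eif3b: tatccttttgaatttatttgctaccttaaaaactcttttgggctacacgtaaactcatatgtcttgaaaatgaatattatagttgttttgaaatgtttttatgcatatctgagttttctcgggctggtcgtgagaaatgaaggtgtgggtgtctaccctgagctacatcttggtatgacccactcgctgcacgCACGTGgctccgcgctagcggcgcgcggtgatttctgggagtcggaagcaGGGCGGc
Eif3k: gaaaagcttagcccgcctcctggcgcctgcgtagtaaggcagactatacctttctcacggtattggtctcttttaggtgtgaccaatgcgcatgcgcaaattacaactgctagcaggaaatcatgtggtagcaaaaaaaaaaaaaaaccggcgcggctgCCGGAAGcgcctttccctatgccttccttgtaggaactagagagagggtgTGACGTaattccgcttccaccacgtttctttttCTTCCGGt
Eif6: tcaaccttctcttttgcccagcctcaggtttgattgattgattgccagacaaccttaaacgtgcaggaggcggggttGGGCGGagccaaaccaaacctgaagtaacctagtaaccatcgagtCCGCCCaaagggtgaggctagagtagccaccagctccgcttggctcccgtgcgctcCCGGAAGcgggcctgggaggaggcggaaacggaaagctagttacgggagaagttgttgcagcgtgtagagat
Eif3b held CACGTG and GGGCGG, Eif3k held CCGGAAG at 2 places and TGACGT, and Eif6 held CCGGAAG and GGGCGG at 2 places, with 0 bases shared between motifs. No motif occurred in all 3. Of the 32 tested members with an entry, 28.1% held CCGGAAG, 21.9% CACGTG, 62.5% GGGCGG and 21.9% TGACGT within these 250 bases. Over all 33469 promoters of the table, noncoding genes included, the shares were 7.27%, 5.59%, 30.5% and 6.95%. Over the promoters of 5762 tested genes they were 16.4%, 8.78%, 62.8% and 11.5%, closer to those of the members. A match is a description of letters and not a bound site.

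Eif6, which binds the large ribosomal subunit and keeps it from joining the small one too early, fell by 12.0%. Its control levels ran from 8.58 to 8.73 (median 8.62) and its learning levels from 8.38 to 8.56 (median 8.45), so the groups did not overlap. The highest learning array, replicate 7, lay just under the lowest control array, replicate 5. The means were 8.63 ± 0.055 and 8.45 ± 0.058 (SD, n = 7 each), a difference of -0.18 (SE 0.036, limma adjusted p = 0.0136). The call held on leaving out each array in turn, with differences between -0.20 and -0.17. Eif1ax, the X-linked gene of eIF1A, which helps the scanning ribosome recognise the start codon, had 0.092 (adjusted p = 0.218), with 6 of 7 learning arrays above the control mean.

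Of the 7 tested genes of the eIF4 group, 1 was called lower and 0 higher, against 0.98% and 1.59% of all genes. The median was 0.043. Eif4b, the RNA-binding helper of the eIF4A helicase, fell at its brightest probe set. The control levels there ran from 8.99 to 9.20 (median 9.12) and the learning levels from 8.90 to 9.08 (median 8.96). The groups overlapped, through control replicate 6 at 8.99 and learning replicate 6 at 9.08. The difference was -0.15 (9.12 ± 0.072 against 8.97 ± 0.060, SD, n = 7 each, SE 0.039, limma adjusted p = 0.0464), and the level fell by 10.1%. This call was the least stable of the 4. It was lost on leaving out any 1 of 12 arrays, all except control replicate 6 and learning replicate 6, with adjusted p from 0.0622 to 0.0946.

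A second probe set of Eif4b pointed the other way. Its levels ran from 7.60 to 8.05 (median 7.94) in control and from 7.85 to 8.16 (median 8.08) in learning arrays, a difference of 0.14 that did not pass (interval -0.012 to 0.28, adjusted p = 0.294). The gap between this probe set and the brighter one was -1.24 ± 0.14 in control and -0.95 ± 0.12 in learning arrays (SD, n = 7 each). The change in that gap, 0.29 (interval 0.14 to 0.44), passed when tested with limma over all 1130 such gaps of 942 genes (adjusted p = 0.0139). Over those gaps 17.6% were called, 14.7% in this direction and 2.92% in the other, and the array-wide balance of dimmer and brighter probe sets moved the same way by 0.17. The mean of both probe sets differed by -0.009 (adjusted p = 0.940). No direction for Eif4b as a gene can therefore be read from these arrays.

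**Figure D4:**
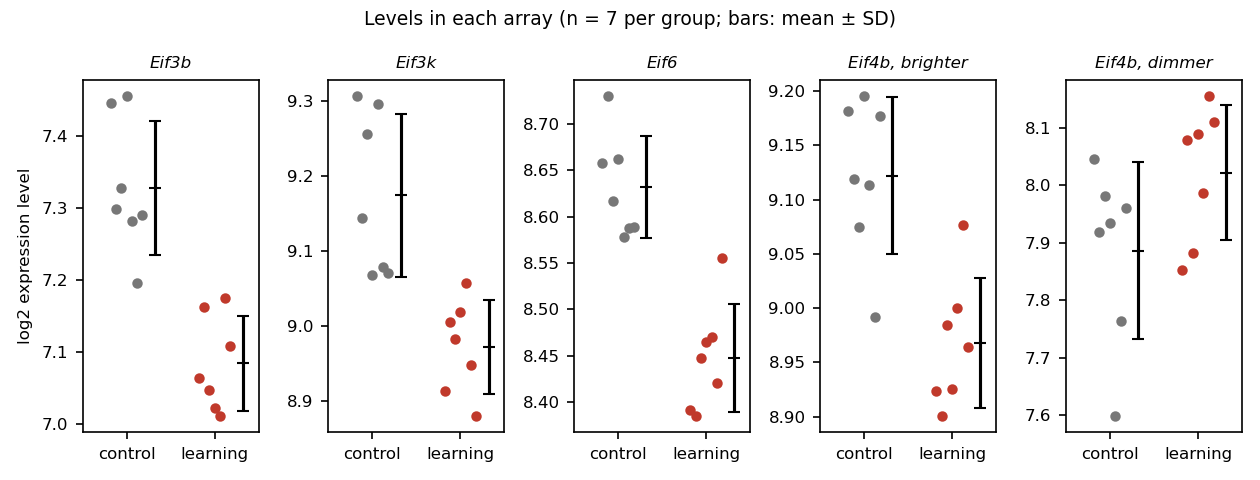
Log2 expression levels (vertical axes, each panel on its own scale) are shown for each array, control in grey and learning in red, with bars for mean ± SD (n = 7 per group). The groups are separate for Eif3b, Eif3k and Eif6 and overlap at both Eif4b probe sets, where learning is lower at the brighter (8.97 against 9.12) and higher at the dimmer one (8.02 against 7.89).

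The remaining eIF4 genes did not pass. Eif4h, a relative of Eif4b that also stimulates eIF4A, had control levels of 9.89 to 10.12 (median 9.99) and learning levels of 9.79 to 9.96 (median 9.86), with all 7 learning arrays below the control mean and overlapping groups. Its difference was -0.13 (SE 0.039, adjusted p = 0.0863). Eif4g2, a scaffold used in cap-independent initiation, had the opposite sign, with control levels of 10.61 to 10.69 (median 10.66) and learning levels of 10.68 to 10.88 (median 10.76). All 7 learning arrays lay above the control mean, and the difference was 0.12 (SE 0.036, adjusted p = 0.0937), against 0.022 at its other tested probe set (adjusted p = 0.870). The 2 helicase genes Eif4a1 (0.048, interval -0.068 to 0.16) and Eif4a2 (0.072, interval -0.011 to 0.15) lay on the same side of 0, and neither passed (adjusted p = 0.675 and 0.321). Eif4e, the cap-binding protein, had 0.043 (interval -0.030 to 0.12) and Eif4ebp2, the eIF4E-binding protein most abundant in brain, -0.039 (interval -0.20 to 0.13), with adjusted p-values of 0.519 and 0.829.

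The eIF2 and eIF2B genes did not pass in any of 7 cases, with 2 of them under an unadjusted p of 0.05, Eif2s1 higher and Eif2b4 lower. Eif2s1, the alpha subunit of eIF2 whose phosphorylation gates initiation, had control levels of 8.73 to 8.90 (median 8.83) and learning levels of 8.83 to 9.05 (median 8.92), with 6 of 7 learning arrays above the control mean. The difference was 0.093 (SE 0.043, adjusted p = 0.238), and Eif2s2, the beta subunit, had -0.021 (interval -0.098 to 0.056). The 5 subunits of eIF2B, the exchange factor of eIF2, all lay below 0, from -0.13 to -0.057, as did 63.9% of all genes. Eif2b4 had the lowest, at -0.13 (adjusted p = 0.241), with all 7 learning arrays below the control mean. Eif2b1 could be measured only loosely, since its SD was 0.45 in control and 0.63 in learning arrays and its interval ran from -0.68 to 0.45. The 2 tested genes of the eIF5 group were both slightly above 0, with 0.050 for Eif5a, which helps the ribosome through difficult peptide bonds (adjusted p = 0.546), and 0.052 for Eif5b, the GTPase of subunit joining (adjusted p = 0.626).

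Of the 7 elongation factor genes 0 were called by limma and 0 lay under an unadjusted p of 0.05, and their median was -0.040. Eef1a1, the general form of eEF1A, had control levels of 13.54 to 13.68 (median 13.63) and learning levels of 13.39 to 13.60 (median 13.57) at its brightest probe set. The difference there was -0.087 (interval -0.18 to 0.0018, adjusted p = 0.262), with all 7 learning arrays below the control mean, and 0.019 at its other probe set (adjusted p = 0.753). Eef1a2, the form that replaces it in mature neurons and muscle, had 0.063 (interval -0.025 to 0.15, adjusted p = 0.420), with 6 of 7 learning arrays above the control mean. The 3 subunits of the eEF1B exchange complex lay below 0, with -0.073 for Eef1b2, -0.068 for Eef1d and -0.040 for Eef1g (adjusted p from 0.358 to 0.696). Of all genes 63.9% lay below 0 as well. Eef2, the translocation factor, had 0.011 (interval -0.083 to 0.11), and Eef2k, the kinase that inhibits it when calcium rises, 0.15 with a wide interval (-0.12 to 0.43, adjusted p = 0.538). A second tested probe set of Eef2k had -0.047 (interval -0.15 to 0.054, adjusted p = 0.628), and the mean of both had 0.054.

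For 27 of the 31 members that did not pass, the 95% interval lay within a 1.2-fold change in either direction. For 22 of the 31 it spanned 0. The called decreases were smaller than that limit, from 1.11 fold in Eif4b to 1.18 fold in Eif3b. An interval within the limit can therefore still hold a change of their size. The intervals beyond it were those of Eif2b1, Eif2b3, Eif3c and Eef2k, with the outermost bounds, -0.68 and 0.45, both in Eif2b1.

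The wider machinery of translation was read from a list of 101 further genes, 82 of them tested. By limma 0 were called in either direction, while 13 had an unadjusted p under 0.05, 5 on the higher and 8 on the lower side (6.33% and 12.3% of all genes), and the median was -0.022. Other factors had a median of -0.0013 over 25 genes, with -0.0013 for the helicase Ddx3x and 0.078 for Eif1b, the 2 brightest. Regulators had 0.0019 over 34 genes, with -0.023 for Rheb, the GTPase that activates mTOR, and 0.085 for Cyfip2, a partner of the fragile X protein. Of 21 genes of tRNA synthetases and their scaffold proteins 18 lay below 0, against 63.9% of all genes, with a median of -0.049, and 6 of them were lower at an unadjusted p under 0.05. The 2 brightest of these were Aars1 (-0.083, adjusted p = 0.215) and Nars1 (0.12, adjusted p = 0.126), and the lowest adjusted p was that of Cars1 (-0.17, adjusted p = 0.0557), named after its value was seen. The 2 mitochondrial factors tested, Tufm (-0.012) and Gfm1 (-0.011), were level.

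Eif3b, Eif6 and Eif3k kept their sign in all 31 other settings, but not always their calls, and Eif4b came close to 0 once its 2 probe sets were averaged. Eif3b stayed called in 28 of them, Eif6 in 26, Eif3k in 12 and Eif4b in 7. With the Gapdh ratio as covariate Eif3b had -0.24 (adjusted p = 0.0706), Eif6 -0.19 (0.0785), Eif3k -0.22 (0.115) and Eif4b -0.15 (0.174). When the probe set balance was the covariate, a fit that lowered the calls over all tested probe sets from 319 to 0 (853 at an unadjusted p under 0.05), they had -0.28 for Eif3b and -0.22 for Eif6 (adjusted p = 0.325 for both), -0.18 for Eif4b (adjusted p = 0.434) and -0.10 for Eif3k (adjusted p = 0.665). The balance did not overlap between the groups (control -3.66 to -3.34, learning -3.30 to -3.20). The spike-in level barely did (control 9.59 to 9.91, learning 9.90 to 10.43). Fits with either covariate can therefore hardly tell it from the group, and calls are lost for that reason alone. With the dentate marker level as covariate Eif3b (-0.25, adjusted p = 0.0344) and Eif6 (-0.19, adjusted p = 0.0446) stayed called, and without the 3 arrays of lowest mean correlation (control replicate 5 and learning replicates 4 and 6) Eif3b alone did (adjusted p = 0.0359). Among the eIF3 subunits 9 of 10 stayed below 0 in every one of these settings except 2, the probe set balance with 8 and the spike-in level with 10. The smaller counts moved more: 0 subunits were called with the Gapdh, spike-in or balance covariate, and those lower at an unadjusted p under 0.05 went from 6 to 4, 5 and 1 in these settings.

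**Figure D5:**
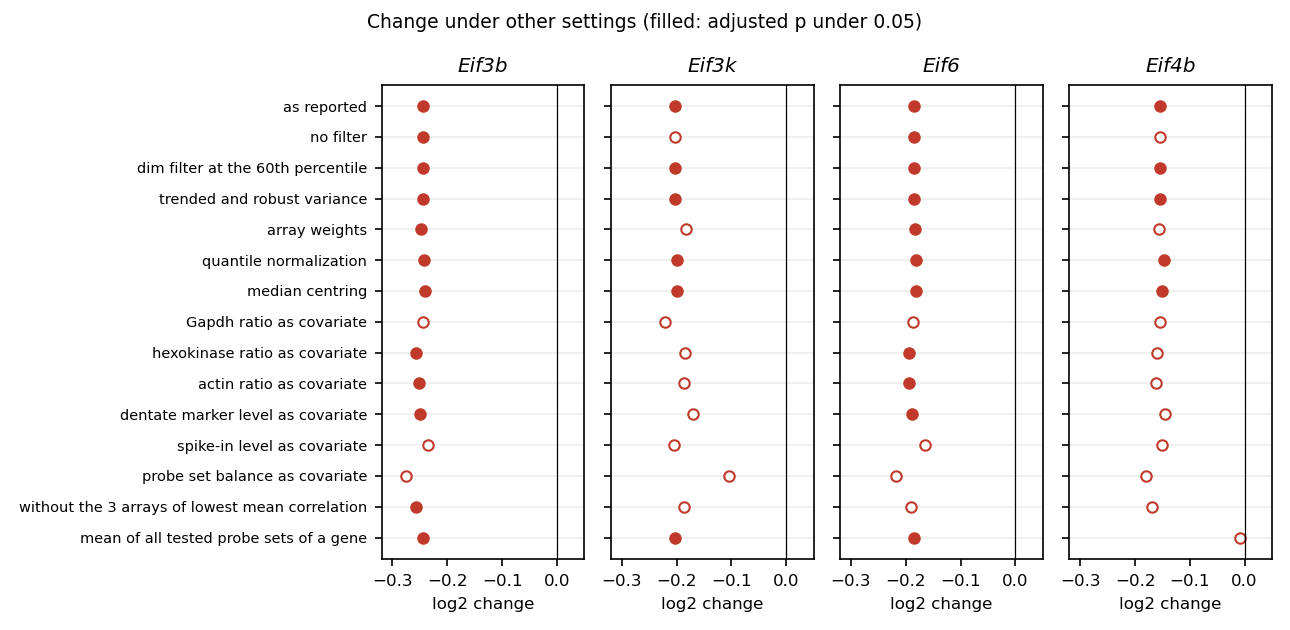
The log2 difference between learning and control (horizontal axes) of the 4 genes called lower is shown under the reported fit and 14 other settings. Filled points have an adjusted p under 0.05 and open points do not. Every point lies left of 0, from -0.28 for Eif3b with the probe set balance as covariate to -0.009 for Eif4b with both of its probe sets averaged.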

How the data were processed

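CA3 RNA of 14 rats, 7 per group as the sample titles give it, was measured on Affymetrix RAE230A arrays. The deposited log2 values of 15923 probe sets were made by the authors with GCRMA, per the submitters' processing notes, a method that models background from each probe's bases and puts the arrays on a common distribution; the sources used here give neither its version nor its settings. That the values are log2 was read from their range and from column medians of 5.07 to 5.09. GCRMA compresses differences near background. Arrays have no read depth, and their number limits the precision. No scan date was used, so no batch was tested.

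Genes came from the platform annotation of 2016, with symbols updated by Entrez ID to RefSeq GRCr8 (12748 of 12783 single-gene probe sets matched; 312 name several genes and 2771 are not listed). Left out were 57 control probe sets and 6346 with a mean under the 40th percentile (3.88). On the other 9520, limma 3.58.1 (R 4.3.3; lmFit, then eBayes) compared the groups, learning minus control, without covariates, and adjusted by Benjamini-Hochberg, with a threshold of 0.05. Single values per array were compared by two-sided exact permutation tests. Intervals cover 95%. The procedure was tested on simulated data.

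All members were named, with their other tested probe sets, and of the wider list the called genes (none) and the 2 brightest of each class. The other wider genes in the text were chosen after their values were seen. The members and lists were chosen with earlier results of these data known. The labels state no pairing, and deviations of same-numbered arrays of the 2 groups were only weakly correlated, so numbers were not used as pairs. Alternatives were other dim filters, variance models, normalizations, covariates, left-out arrays, the replicate block and probe set summaries; those chosen after seeing the data were the actin ratio, leaving out 3 arrays, and 1 probe set per gene.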

Additional observations from a re-analysis of the deposited data

Results flagged for a closer look

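Among 78 sets of 7 arrays (39 tested probe sets in 2 groups), 6 held 1 array whose distance from its nearest neighbour exceeded the critical share of 0.568 of the group's range, where chance gives about 1 in 20. Eif2b4 was 7.61 in learning replicate 1, against 7.79 to 7.93 in the other learning arrays. Eif2s2 was 8.95 in learning replicate 2, against 9.07 to 9.12. Eif4e was 9.44 in learning replicate 6, against 9.29 to 9.35. Eif5b was 8.33 in control replicate 5, against 8.02 to 8.13 in the other control arrays. Eef2 was 11.72 in learning replicate 5, against 11.58 to 11.64. The second probe set of Eef2k was 3.81 in learning replicate 6, against 3.97 to 4.06. None of these probe sets was called, and none of the 4 genes called lower is among them.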

How the results depend on the processing

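Of 31 alternatives, 13 left the count of 4 called members within 1.5 times, at 4 or at 3, and 18 lowered it to 2 or fewer. It was 3, for example, with 1 probe set per gene and with the mean of all tested probe sets of a gene. It was 2 without a dim filter, with array weights or with the hexokinase, actin or dentate covariate, 1 without the 3 arrays of lowest mean correlation, and 0 by limma with the Gapdh, spike-in or probe set balance covariate (10, 9 and 5 at an unadjusted p under 0.05). With the replicate block it was 1, Eif3b. The labels give the numbers only as biological replicates. Correlations of same-numbered deviations ran from -0.16 to 0.13, and 2 of 7 control arrays matched their own number best. A pairing by number was thus neither shown nor excluded. Leaving out 1 array gave 2 to 4 members, 163 to 352 probe sets, 0 to 1 genes of the wider list and a median member difference of -0.061 to -0.042. The 319 probe sets called overall became 158 without a dim filter, 39 with the Gapdh, 177 with the hexokinase, 87 with the dentate, 91 with the spike-in and 0 with the balance covariate (853 at an unadjusted p under 0.05), 105 without the 3 arrays and 132 with 1 probe set per gene. The wider list had 1 call with the filter at the 60th percentile, and the member median was -0.030 with the spike-in covariate. The cause of these changes was not tested. Because the balance did not overlap between the groups and the spike-in level barely did, fits with these covariates can hardly separate them from the group.

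None of the 31 members that did not pass was called in any alternative, and 24 of the 35 kept their sign in all. With the Gapdh covariate the sign turned for Eef2 (-0.031) and Eif2b5 (0.015). With the spike-in covariate it turned for Eif2b1 (0.038), Eif2b2 (0.0013), Eif2b3 (0.065) and Eif3c (-0.035). With the balance covariate it turned for Eif3m (0.0045), Eif4a1 (-0.068) and Eif5a (-0.062), and for Eif5a without the 3 arrays (-0.0041). Leaving out 1 array turned Eef2 (-0.011 to 0.030), Eif2b1 (-0.25 to 0.033), Eif2s2 (-0.034 to 0.00051) and Eif4ebp2 (-0.070 to 0.011). The spread between arrays limits Eif2b1, Eif2b3, Eif3c and Eef2k the most.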

Other observations

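Subunits of eIF3 were only weakly correlated from array to array. After removing group means, the median correlation over the 14 arrays was 0.042 for the 45 pairs of eIF3 subunits, 0.028 for all 595 pairs of members and 0.0081 for all pairs of the 6836 tested genes. Values from 1 array share its normalization, and these are descriptions with no test. The highest correlation among members was that of Eif2s1 and Eif5a (0.80), followed by Eif2b3 and Eif4b (0.78). The lowest was that of Eif4a1 and Eef2k (-0.89), and within eIF3 it was -0.70, between Eif3a and Eif3f.

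Etf1, the release factor that ends translation, had the largest difference of the wider list at 0.42 (5.67 against 5.25, SE 0.16, limma adjusted p = 0.169), which did not pass; it was named after its value was seen. Pdcd4, an inhibitor of eIF4A, had 0.16 (adjusted p = 0.143), and Fxr2, a relative of the fragile X protein, -0.11 (adjusted p = 0.0955). The kinases of eIF2 were close to 0, from -0.048 for Eif2ak4 to 0.036 for Eif2ak2, and so were Mtor (0.016) and Rps6kb1 (0.036), the kinase of ribosomal protein S6.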
